A study of Mus musculus with 2 samples.

Results

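The glandular kallikreins are a family of closely related trypsin-like serine proteases whose genes lie side by side in the mouse genome. The 10 genes described here, Klk1 and 9 members of its Klk1b branch (Klk1b1, Klk1b3, Klk1b4, Klk1b5, Klk1b9, Klk1b11, Klk1b22, Klk1b24 and Klk1b27), were chosen by name, and all 10 had rows among the 20140 genes of the tables. They were measured in 2 droplet single-cell RNA libraries of submandibular and sublingual glands from female C57BL6/J mice, 14 weeks old. In the ligated library a metal clip had closed the main ducts for 14 days, and in the mock library the ducts had been exposed without a clip for the same time. Each library came from 2 glands, and beads had removed cells with EpCAM, which marks epithelium, or with Ter119, which marks the red cell lineage, followed by a dead-cell removal. Epithelial cells are therefore those that escaped depletion, and both libraries share this limit. With 1 library per group there was no spread between replicates, so no difference carries a test or an error, and each describes these 2 libraries only.

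In the mouse submandibular gland, kallikreins are made by duct cells, above all by the granular and striated parts of the duct system, and are stored in secretory granules and released into saliva. Klk1 encodes tissue kallikrein, the protease that releases kinin peptides, which widen blood vessels, from kininogen. Some Klk1b genes encode proteins known for binding a growth factor: Klk1b9 and Klk1b22 encode binding proteins of epidermal growth factor. Many Klk1b genes are known to be induced by androgens, and the granular ducts that make them are smaller in females.

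All 10 genes lie on the plus strand of chromosome 7 within 262.9 kb of the mm10 (GRCm38) assembly, from Klk1b1, whose first base is 43966751, to Klk1, whose last base is 44229618, and each has 5 exons in the GENCODE annotation. Klk1b5 starts 9.4 kb before Klk1, Klk1b4 17.9 kb and Klk1b3 27.2 kb before it, whereas Klk1b9 starts 249.3 kb before it. The coding sequences of the Klk1b genes were 84.3 to 95.2% identical to that of Klk1, with Klk1b5 the closest, and 82.8 to 93.6% identical to each other. Because reads are assigned to these genes by such differences, the last 60 coding bases, stop codon included, of Klk1 and of the Klk1b members that the results turn on are shown, with capitals at every base that differs from Klk1 at the same position counted back from the stop codon. Each stretch lies in the last exon (chr7:44229510-44229569 for Klk1, chr7:44220595-44220654 for Klk1b5, chr7:43980269-43980328 for Klk1b9, chr7:43999767-43999826 for Klk1b11 and chr7:44192347-44192406 for Klk1b24, all on the plus strand).
Klk1: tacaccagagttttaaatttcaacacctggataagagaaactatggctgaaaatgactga
Klk1b5: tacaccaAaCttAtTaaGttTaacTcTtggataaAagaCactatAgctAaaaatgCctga
Klk1b9: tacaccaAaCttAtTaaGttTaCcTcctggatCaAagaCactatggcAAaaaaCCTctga
Klk1b11: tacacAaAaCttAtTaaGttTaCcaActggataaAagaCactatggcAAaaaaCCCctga
Klk1b24: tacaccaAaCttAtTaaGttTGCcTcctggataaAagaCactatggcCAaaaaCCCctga

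Over these 60 bases Klk1b5 differed from Klk1 at 13 positions, and Klk1b9, Klk1b11 and Klk1b24 at 16 each. In the last 300 transcript bases no member shared a run of 100 bases with another gene. Runs of 75 bases were shared by 2 members: 10.6% of such runs in Klk1b24 and 3.54% in Klk1b3 also occur in other kallikrein genes or pseudogenes. With runs of 50 bases the shared part was 27.5% for Klk1b24, 25.1% for Klk1b22, 19.1% for Klk1b3 and 9.56% for Klk1. The values of Klk1b24, Klk1b22 and Klk1b3 are therefore the ones most open to reads split between near copies, and read length is not given in the sources used here.

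The start regions also resemble each other. The 70 bases before the annotated start are shown for Klk1 and for 3 Klk1b members on which the results turn, from RefSeq on GRCm38.p6 and the plus strand (chr7:44225290-44225359 for Klk1, chr7:43975991-43976060 for Klk1b9, chr7:43995807-43995876 for Klk1b11 and chr7:44188166-44188235 for Klk1b24), with capitals marking TTTAAA.
Klk1: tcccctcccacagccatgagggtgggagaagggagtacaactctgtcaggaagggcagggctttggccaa
Klk1b9: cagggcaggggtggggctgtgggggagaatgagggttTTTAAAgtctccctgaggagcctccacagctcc
Klk1b11: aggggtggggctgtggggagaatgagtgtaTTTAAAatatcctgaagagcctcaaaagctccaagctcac
Klk1b24: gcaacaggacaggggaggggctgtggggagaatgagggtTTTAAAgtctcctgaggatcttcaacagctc

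TTTAAA, which reads the same on both strands, occurred in the RefSeq start windows (250 bases before to 50 after the start) of 9 of the 10 members, all but Klk1, and in 13.2% of all 32851 windows. It lies 33 bases before the start in Klk1b9, 40 in Klk1b11 and 31 in Klk1b24. AGAACA, the core letters of the glucocorticoid receptor element, was searched on both strands and occurred in 2 of the 10 windows and in 19.0% of all windows. These matches describe letters in these windows only.

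Each value is a cluster mean, in UMIs (unique molecular identifiers, 1 per captured RNA molecule) of the gene per 10000 UMIs of the cell. They count captured molecules, so they are not divided by gene length. A difference is log2((ligated + 0.1)/(mock + 0.1)), and the size rule asks for a higher value of 0.5 or more and a difference of 1 or more in either direction. The libraries held 11406 ligated and 4199 mock cells in 12 clusters. Cluster 7 was ductal-like: Fxyd2, Krt7 and Krt18 were among its 10 leading genes, beside Klk1, Klk1b9, Klk1b11 and the related Klk1b26, and 18 of 20 duct markers were detected. It held 278 ligated and 201 mock cells, whose recovered UMI totals were low, with medians of 982.5 and 1076.5, against 4948 to 14253.5 in the other compared clusters. Acinar genes led cluster 8, but it held markers of many other cell types, stayed unnamed and had only 25 mock cells. Clusters 8, 9 and 11 had fewer than 50 mock cells, so their values are given without comparison.

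In the ductal-like cluster, Klk1 was the dominant kallikrein in both libraries and was higher after ligation, while most Klk1b genes were lower. Klk1 stood at 346 UMIs per 10000 in mock and 898 in ligated cells, a ratio of 2.60 and a difference of 1.38. The 9 Klk1b genes together came to 40.8 in the mock and 34.0 in the ligated library, a difference of -0.27. Klk1 therefore made up 89.4% of the summed kallikrein level in the mock and 96.4% in the ligated ductal-like cells, and the sum of all 10 genes, 387 and 932, followed Klk1.

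Of the 10 members, 1 was past the size rule upward (Klk1) and 1 downward (Klk1b24). Over the 3255 genes of this cluster that reached the minimum value, 14.8% were past the rule upward and 11.6% downward, so the members' share of 1 in 10 each way is near the background. By sign alone 3 members were higher in the ligated library and 7 were lower. The median difference was -0.42 over the 10 members and -0.48 over the 9 Klk1b genes, against 0.019 over the 9367 genes with a mean of at least 0.05.

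Among the growth factor binding members, Klk1b9 was the highest of the 9 Klk1b members in the mock library at 14.4, and stood at 7.42 in the ligated library, a difference of -0.95. Klk1b22, the other epidermal growth factor binding protein, stood at 2.29 and 1.61 (difference -0.48). Klk1b3 stood at 2.60 in the mock and 1.62 in the ligated library (difference -0.65). Klk1b4 differed least of these 4 genes, with 2.53 and 1.99 (difference -0.33). All 4 were lower after ligation, and none was past the size rule.

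Klk1b11 went the other way. It stood at 9.03 in the mock and 14.2 in the ligated library (difference 0.65), and was the highest of the 9 Klk1b members there: of their summed level, Klk1b9 held 35.3% in the mock and 21.9% in the ligated cells, and Klk1b11 22.1% and 42.0%. Klk1b1, the lowest member in the mock library, was also higher after ligation, with 0.737 and 1.23 (difference 0.66). Neither was past the size rule. As a share of the duct markers without Fxyd2, a scaling added after seeing the data, both directions turned, to -0.35 for Klk1b11 and -0.24 for Klk1b1. Those markers themselves summed to 52.1 in the mock and 105 in the ligated library. Klk1b1 rests on few molecules, about 16 UMIs in all mock and 34 in all ligated ductal-like cells, as estimated from the median recovered totals.

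The remaining members were lower in the ligated library. Klk1b5, the closest relative of Klk1 in sequence and its nearest upstream neighbour, stood at 4.69 and 3.64 (difference -0.36). Klk1b27 stood at 3.50 and 1.82 (difference -0.91). Klk1b24, its nearest relative by coding sequence (93.6% identical), stood at 1.05 in the mock and 0.380 in the ligated library (difference -1.26), or about 23 and 10 UMIs. It was past the rule, but with a pseudocount of 1 its difference was -0.57. The 4 members nearest to Klk1 on the chromosome (Klk1b5, Klk1b4, Klk1b3 and Klk1b24) were all lower, as were 7 of the 10 members in all. A part of likeness or nearness to Klk1 in these differences was not tested.

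**Figure D1:**
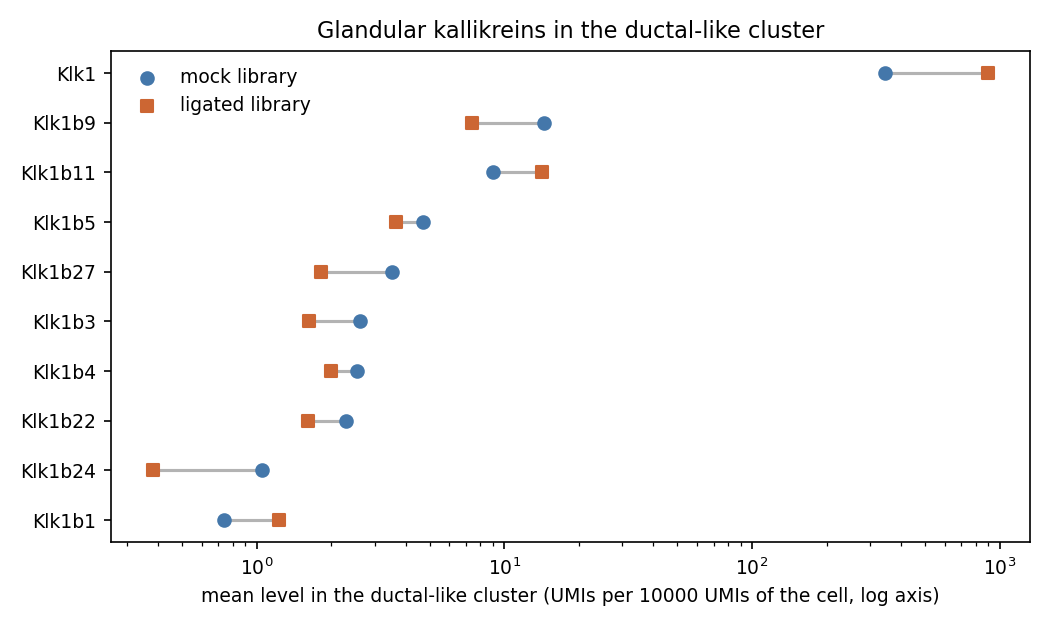
Mean level of each of the 10 kallikreins in the ductal-like cluster, in UMIs per 10000 UMIs of the cell on a log axis, for the mock library (circles) and the ligated library (squares), 1 library per group and so no error bars. Klk1 lies far above all Klk1b genes and moves from 346 to 898. Klk1b11 and Klk1b1 also lie higher in the ligated library, and the other 7 genes lie lower. As a share of the duct markers without Fxyd2, a scaling added after seeing the data, Klk1b11 and Klk1b1 lie lower.

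The 4 other glandular kallikreins with rows gave no value past the rule. Klk1b26, known as a binding protein of epidermal growth factor, stood at 20.7 in the mock and 19.9 in the ligated library, above every Klk1b member of the set in both. Klk1b16 stood at 1.11 and 1.75, Klk1b21 at 1.10 and 1.22, and Klk1b8 at 0.696 and 0.402. Klk1b7-ps had no row. With these 4, the relatives of Klk1 thus included genes higher, lower and nearly equal after ligation.

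Other secretory products of granular ducts that are named here were mostly low in both libraries. Crisp3, a secreted cysteine-rich protein, was the exception, with 17.1 in the mock and 15.6 in the ligated library. Egf, epidermal growth factor, stood at 0.182 and 0.0560, and Ren1, the renin gene, was listed at 0 in both.

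Duct genes themselves moved in the ductal-like cluster. Of 14 duct markers that reached 0.5, 9 were past the size rule upward and 0 downward, and the list's median difference was 1.08. The keratin gene Krt7 stood at 8.23 in the mock and 22.3 in the ligated library, Krt18 at 11.2 and 23.3, and Epcam, the target of the depletion, at 1.53 and 5.59. Fxyd2, a regulator of the sodium pump and the highest marker, went the other way, with 264 and 197. So did Tesc, with 14.6 and 10.9, and Ehf, with 3.14 and 1.67. Without Fxyd2 the list summed to 52.1 in the mock and 105 in the ligated library. Taken as a share of that sum, a scaling added after seeing the data, Klk1 differed by 0.37, which is not past the rule. All 9 Klk1b genes were then lower, from -0.24 for Klk1b1 to -1.99 for Klk1b24. As a share of the whole list, where Fxyd2 dominates, the sum of the 10 kallikreins still differed by 1.33.

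Markers of immune, fibroblast and endothelial cells were also higher in the ligated ductal-like cells. The 13 macrophage markers summed to 1.37 in the mock and 6.67 in the ligated library, with 6 at 0 in the mock (Csf1r, Adgre1, C1qc, Mrc1, Fcgr1 and Aif1) and 2 in the ligated cells (Adgre1 and Mrc1). The 10 natural killer markers summed to 1.38 and 7.12, with Gzma and Eomes at 0 in the mock only, and the 10 T cell markers to 0.561 and 1.69, with Cd4 at 0 in both and Cd8a, Trac and Il7r in the mock only. The 11 fibroblast markers summed to 1.69 and 6.86, with Col1a1, Pdgfra and Mfap5 at 0 in the mock only. The macrophage, natural killer and fibroblast sums were 0.476 to 1.89% of their level in the cluster of that name in the mock and 2.35 to 9.40% in the ligated library. The 11 endothelial markers, none at 0, summed to 7.82 and 12.6, and the 6 erythroid markers went from 7.31 to 3.09. The part of these in the kallikrein differences was not tested.

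In the cluster led by acinar genes, Klk1 stood at 7.39 in the mock library (25 cells) and 19.6 in the ligated library (264 cells), which is 2.14 and 2.18% of the ductal-like level of the same library. Klk1b9 was the highest Klk1b gene of its mock cells at 1.77 and stood at 0.350 in the ligated cells, and Klk1b1 and Klk1b24 were at 0 in both. The list of 16 acinar genes summed to 4801 in the mock and 394 in the ligated library, and the recovered UMI totals had medians of 5440 and 995.5.

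Outside these clusters Klk1 was low but present, and it was higher after ligation in every compared cluster. In the 8 compared non-epithelial clusters it ranged from 0.286 to 1.64 in the mock library (median 0.456) and from 1.39 to 11.01 in the ligated library (median 2.02). The lowest ligated value, in fibroblast-like cells, lies above all mock values except that of macrophage-like cells. Klk1 was past the size rule upward in 8 of 8 clusters. None of the 72 pairs of a Klk1b gene and a cluster reached the minimum value of 0.5, so none could pass in either direction. Over all 27629 gene and cluster pairs that reached the minimum in these clusters, 5.96% were past the rule upward and 3.29% downward. Leaving out genes above 0 in just 1 library, these shares were 4.68 and 2.51%. Within single clusters the upward share was at most 4.92% (mural-like cells) in 7 of the 8, and 23.0% in the erythroid-like cluster.

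Among the 8 compared non-epithelial clusters, the macrophage-like cells had the highest Klk1 in both libraries, 1.64 and 11.01, a ratio of 6.72. Endothelial-like cells of cluster 0, the largest mock cluster, stood at 0.286 and 2.05 (ratio 7.17), and the second endothelial-like cluster at 0.296 and 1.87 (ratio 6.31). Mural-like cells, named for the cells that surround vessels, stood at 0.478 and 2.90 (ratio 6.06). Their cluster also held genes of basal and myoepithelial cells, which belong to the epithelium. Krt14 stood there at 0.622 and 2.46 and Krt17 at 0.473 and 1.77, whereas Krt15 and Oxtr were at or near 0. Whether the cluster held such cells was not tested, and it is counted here as non-epithelial. The smallest ratios were in lymphoid and fibroblast-like cells: natural killer-like cells stood at 0.520 and 1.75 (3.36), T cell-like cells at 0.477 and 1.99 (4.18) and fibroblast-like cells at 0.322 and 1.39 (4.32). The erythroid-like cluster, with 60 ligated and 85 mock cells, had the largest ratio, 0.434 and 6.07 (14.0). All 8 ratios exceeded the ductal-like ratio of 2.60.

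For clusters 9 and 11, with few mock cells, the values are given without comparison. Schwann-like cells (cluster 9) were listed at 0 in 17 mock cells, where 1 UMI corresponds to about 0.126, and stood at 8.48 in 271 ligated cells. Cluster 11, led by cycling genes, stood at 0.0873 in 22 mock and 17.5 in 59 ligated cells. In the subset of cells named after Pdgfra, Pdgfrb and Gli1, which mark fibroblasts and mural cells, Klk1 stood at 0.340 in the mock and 2.71 in the ligated library in subset cluster 0, at 0.244 and 3.08 in subset cluster 2 and at 0.0750 and 1.73 in subset cluster 3, the 3 subset clusters with at least 50 cells in each. These cells are also part of the clusters of all cells, so they add no separate evidence.

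Outside the epithelium the Klk1b genes differed less than Klk1, and in either direction. Their sum ranged from 0.0468 to 0.429 over the 8 compared clusters in the mock library (median 0.101) and from 0.0318 to 0.404 in the ligated library (median 0.0861). The ratio of the sums had a median of 0.864 and ranged from 0.308 in erythroid-like to 2.22 in endothelial-like cells. The cell-weighted mean of the sum over the 10 clusters other than 7 and 8 was higher in the ligated library, 0.0751 and 0.114 (ratio 1.52), against a ratio of 7.37 for Klk1. The highest single Klk1b value was 0.142, of Klk1b11 in ligated macrophage-like cells. Of the 72 pairs of a Klk1b gene and a cluster, 27 were at 0 in the mock and 18 in the ligated library, 30 were higher in the ligated and 29 higher in the mock library. Many of these values rest on a few molecules: of 120 pairs of a member and any of the 12 clusters, 12 consisted of 1 UMI in 1 cell.

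**Figure D2:**
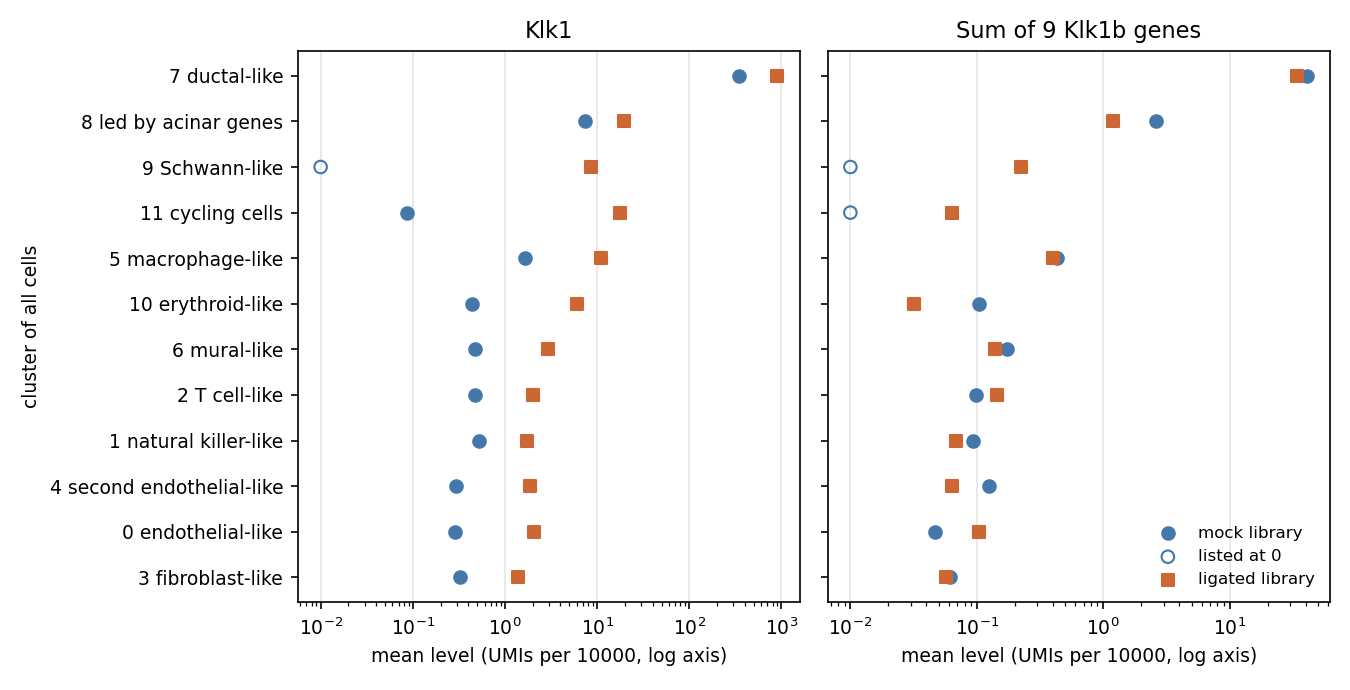
Mean level of Klk1 (left) and summed level of the 9 Klk1b genes (right) in each of the 12 clusters, in UMIs per 10000 on log axes, for the mock library (circles, open where listed at 0 and then drawn at the left edge) and the ligated library (squares). Klk1 lies higher in the ligated library in all 9 compared clusters, while the Klk1b sums of the 2 libraries lie in either order (clusters 8, 9 and 11 have few mock cells and are not compared).

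The mix of kallikreins outside the epithelium differed between the libraries in the same direction as in the ductal-like cells. The Klk1b genes made up 10.6% of the kallikrein sum in the mock and 3.65% in the ligated ductal-like cells. In the 8 compared non-epithelial clusters they made up 14.1 to 29.6% in the mock library (median 18.2%) and 0.521 to 6.80% in the ligated library (median 3.84%). The clusters of a library are not replicates of it, and Klk1, the larger part of the sum, was higher after ligation in all 8. The ligated median was close to the ductal-like share of that library, and all 8 mock shares lay above theirs. Within the 9 Klk1b members, the cell-weighted mean of the non-epithelial clusters was led by the same genes as in the ductal-like cells. Klk1b9 led in the mock library with 30.1% of their sum, ahead of Klk1b11 with 26.5%. Klk1b11 led in the ligated library with 34.4%, ahead of Klk1b9 with 27.0%. These levels rest on few molecules, and single clusters differed. Among the 8 compared clusters of the mock library, Klk1b9 lay above Klk1b11 only in natural killer-like, T cell-like and mural-like cells. Of these, natural killer-like cells (0.0352 and 0.0205) were the most numerous. Klk1b11 lay above Klk1b9 in the other mock clusters, as in fibroblast-like (0.0313 and 0.0137), macrophage-like (0.0898 and 0.0765) and erythroid-like cells (0.0379 and 0.0202). Klk1b9 lay above Klk1b11 in ligated endothelial-like cells of cluster 0 (0.0413 and 0.0277).

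**Figure D3:**
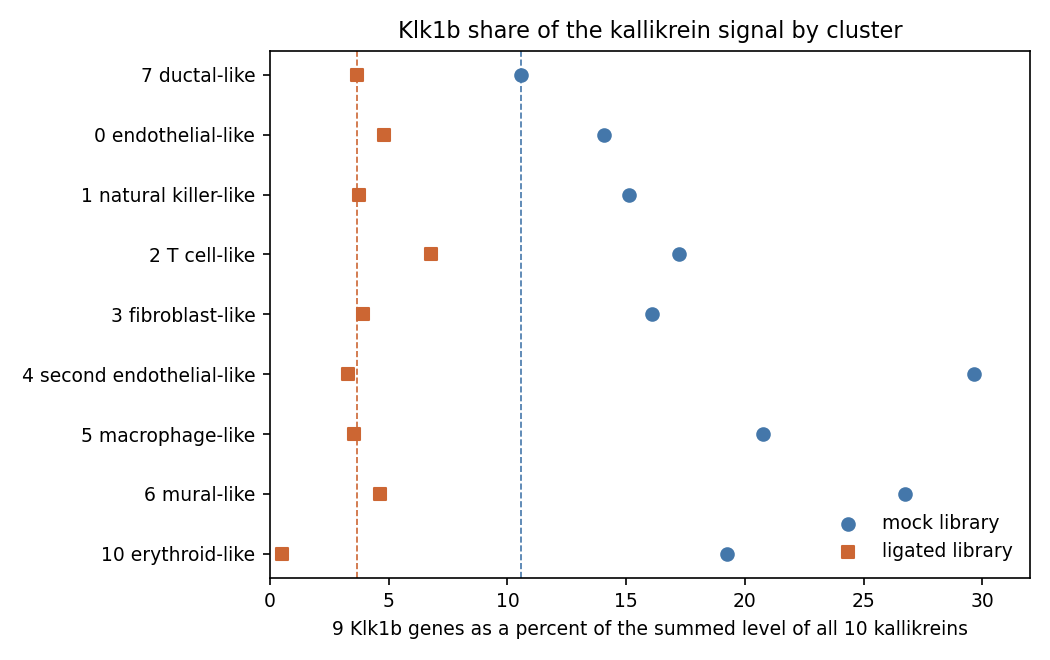
The 9 Klk1b genes as a percent of the summed level of all 10 kallikreins in the ductal-like cluster and the 8 compared non-epithelial clusters, for the mock library (circles) and the ligated library (squares), with dashed lines at the ductal-like value of each library, 10.6% and 3.65%. In the mock library all 8 clusters lie to the right of the ductal-like value, and in the ligated library they lie on both sides of it, from 0.521 to 6.80%.

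Set against the ductal-like level, the cell-weighted mean of the kallikrein signal outside clusters 7 and 8 was a fraction of a percent. Single clusters could lie higher: Klk1 reached 1.23% in ligated macrophage-like cells and 1.95% in ligated cells of cluster 11. The Klk1b sum reached 1.05% in mock and 1.19% in ligated macrophage-like cells. These percents compare shares of a cell's UMIs, not molecules per cell. Median recovered UMI totals were 982.5 (ligated) and 1076.5 (mock) in ductal-like cells, and 4948 to 14253.5 in the other compared clusters. The cell-weighted mean of Klk1 over the 10 clusters other than 7 and 8 was 0.371 in the mock and 2.73 in the ligated library, or 0.107 and 0.304% of the ductal-like level. For the 8 Klk1b genes with at least 0.5 in both libraries in the ductal-like cells this percent had a median of 0.186 in the mock and 0.269 in the ligated library, and was higher in the ligated library for 6 of the 8. For 14 other duct genes (10 duct markers, Crisp3, Klk1b16, Klk1b21 and Klk1b26) the medians were 0.265 and 0.410%, and 10 of the 14 were higher in the ligated library. The percents of single duct genes varied widely. Among those with a ductal-like level above 10 in both libraries, Fxyd2 gave 0.167 and 0.363, Krt18 0.183 and 0.409 and Crisp3 0.169 and 0.349, whereas Klk1b26 gave 0.271 and 0.280 and Tesc 1.21 and 1.78. Klk1 had 0.107 in the mock library, below the lowest of the 14 (0.110, Klk1b16). The 4 genes with a lower percent in the ligated library were Wfdc18 (19.0 and 2.40), Atp1b1 (7.36 and 2.21), Krt8 (0.858 and 0.684) and Klk1b21 (0.259 and 0.120). In the mock library Wfdc18 stood higher in mural-like cells (8.61) and in cluster 8 (152) than in ductal-like cells (2.22). In the ligated library it stood lower in both (1.01 and 1.97) than in ductal-like cells (7.55). The part of free RNA in these levels was not tested.

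**Figure D4:**
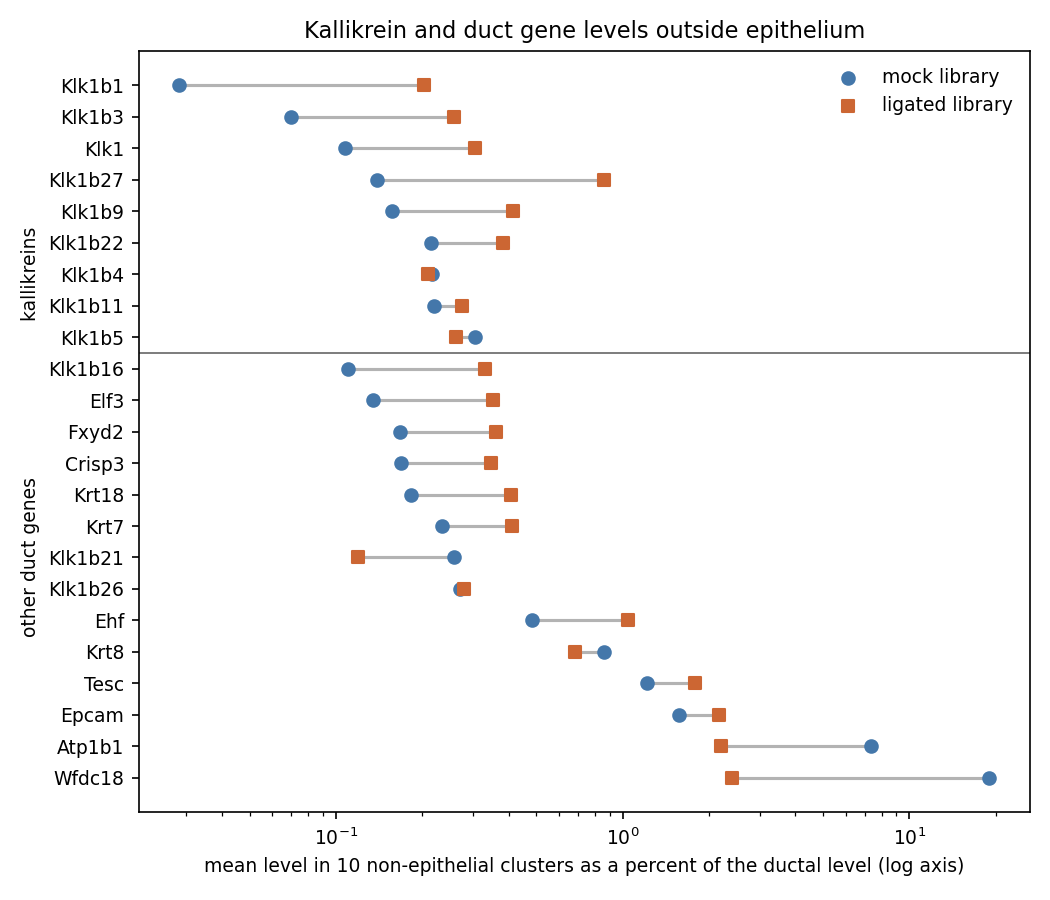
Cell-weighted mean level in the 10 clusters other than 7 and 8 as a percent of the ductal-like level of the same library, on a log axis, for 9 kallikreins of the set (above the line) and 14 other duct genes (below it), with circles for the mock and squares for the ligated library. Klk1 moves from 0.107%, just below the lowest of the other duct genes (0.110%), to 0.304%, and the medians of those genes are 0.265 and 0.410%.

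Because the other clusters hold many more cells, these low levels added up. Weighted by cell numbers, the ductal-like cells held 97.5% of the summed kallikrein level of the mock library and 87.7% of that of the ligated library. The cluster led by acinar genes held 0.313 and 1.86%, and all other clusters 2.22 and 10.5%. These shares weight each cell equally, whatever its UMI total. Per member, the ductal-like share was between 94.3% (Klk1b5) and 99.4% (Klk1b1) in the mock library and between 72.9% (Klk1b27) and 92.7% (Klk1b1) in the ligated library.

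The genes whose profile over the 24 cluster and library columns was most like that of Klk1 included 3 of the duct marker list, Krt18, Fxyd2 and Epcam. The measure was Pearson's correlation of log2(value + 0.1) over 7765 genes, and it is a description, since the columns share 2 libraries and the ductal-like columns set most of it. The secreted protease inhibitor-like gene Wfdc2 came first (0.92), followed by the mitochondrial creatine kinase gene Ckmt1 (0.89), Krt18, Plet1, Fxyd2, Crisp3, Epcam, Cxcl17, Chchd10 and Timm10 (0.85). In the ductal-like cluster Wfdc2 stood at 3.81 in the mock and 18.4 in the ligated library and Cxcl17 at 1.59 and 7.33, while Ckmt1 (6.13 and 6.22) and Chchd10 (24.2 and 23.8) were nearly equal. Among the members, Klk1b11 was the most like Klk1, at rank 10 (0.85), then Klk1b9 at rank 27 (0.81), and Klk1b24 was the least, at rank 122 (0.73).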

How the data were processed

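The 10X Genomics libraries (platform per the labels) were processed with Cell Ranger 6.0.1 and Seurat on mm10, per the submitters' processing notes. Annotation, cell filters and the clustering method are not given in the sources used here. The authors deposited 4 tables of cluster means (other unit: linear means of UMIs per 10000), for all cells and for a subset, each with both libraries together and split. This unit was read from the values: every column sums to 10000. No counts per cell were used, so no count model was fitted. Dates had replaced 21 gene names, which were restored by row order.

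Cell numbers were recovered from the weight that joins the split values into the joint value (tolerance 2e-09), and UMI totals from genes seen in 1 cell. These totals favour deep cells. The method was tested on simulated data and recovered 3 of 3 sets of cell numbers, and the size rule 200 of 200 genes. A cluster was compared where both libraries had 50 cells or more in it. Cell barcodes were not used here. No doublet caller was run, and removal by the authors is not stated. Named genes are the 10 members, genes of the lists, and the 10 non-member genes most like Klk1. The members and lists were chosen with earlier results of these data known. Sequences come from RefSeq (GRCm38.p6) and GENCODE transcripts, read with Biopython 1.88. Some genes of the lists are not reported here. Alternatives varied the pseudocount, thresholds, scaling and clusters. Python 3.11.15, numpy 2.4.6, pandas 2.3.3 and matplotlib 3.10.9 were used.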

Additional observations from a re-analysis of the deposited data

How the results depend on the processing

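No paired analysis was possible because each group is 1 library. Of 114 values recomputed for 25 results, 92 kept their direction and their side of the rule, or stayed within 1.5 times where the result is a count or a percent. With a difference of at least 2 the ductal-like counts were 0 upward and 0 downward, and the downward count was also 0 with a pseudocount of 1 or a higher value of at least 2. Outside the epithelium the upward count was 5 with a difference of at least 2 and 4 where the higher value had to reach 2. The summed ductal-like difference of 1.27 was -0.27 without Klk1 and, in an alternative added after seeing the data, 0.26 as a share of the duct marker list without Fxyd2. In that alternative Klk1b1 was at -0.24 and Klk1b11 at -0.35, and 6 Klk1b genes came past the rule downward. The kallikrein level outside the epithelium, a median of 0.144% of the ductal-like level in the mock and 0.231% in the ligated library, was 2.93 and 8.29% of the library mean, and 0.248% in the mock library without Klk1. The Klk1b share in the other clusters of the ligated library, 4.00%, was 2.31% with clusters weighted equally. Leaving out the macrophage-like and erythroid-like clusters, also added after seeing the data, gave a median summed difference outside of 1.84 against 2.01. Thresholds act on counts only, so they give no separate values for single genes. In the ductal-like cluster 1 UMI corresponds to about 0.0462 in the mock and 0.0366 in the ligated library, which limits Klk1b1 and Klk1b24 most.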

Other observations

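Partners of tissue kallikrein were sparse in the ductal-like cells. Of 14 listed kinin and kallikrein partners, 11 had rows, and none reached 0.5 there in either library. Ace, which degrades kinins, stood at 0.0489 in the mock and 0.365 in the ligated library, and Mme, another kinin-degrading peptidase, at 0.310 and 0.211. The kinin receptor gene Bdkrb1 was listed at 0 in both, and Bdkrb2 at 0 in the mock and 0.00284 in the ligated library, which is 1 UMI in 1 cell. The kininogen genes Kng1 and Kng2 had no row.

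Of 13 kallikrein-related peptidases outside the glandular family, 8 had rows, and none reached 0.5 in the ductal-like cells. Klk8 stood at 0.0484 in the mock and 0.143 in the ligated library. Klkb1, plasma kallikrein, stood at 0.0790 and 0, where the mock value is 1 UMI in 1 cell. The other 6 (Klk7, Klk9, Klk10, Klk12, Klk13 and Klk14) were listed at 0 in both. Of the hormone receptor genes named here none was past the size rule: the thyroid hormone receptor gene Thra stood at 0.564 and 0.630, the glucocorticoid receptor gene Nr3c1 at 0.334 and 0.433, and Pgr and Esr1 were listed at 0 in both.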
